A study of Mus musculus with 4 samples.

Results

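The genes described here are those that carry, receive and restrain Wnt signals outside the cell: the Wnt ligands, the Frizzled receptors with their co-receptors Lrp5 and Lrp6, the secreted inhibitors of the Sfrp, Dkk and Wif families with Frzb, the R-spondins, and Porcn and Wls, which a cell needs to release a Wnt protein. They were chosen by a rule on gene symbols that uses no measured value, although earlier results of these data were known. The rule is met by 47 mouse symbols, and 46 of them had a probe, out of 17016 named genes on the array. Of these 46 genes, 34 passed the filter on dim probes and were tested. Fzd9 was not analysed here.

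Wnt proteins are lipid-modified by Porcupine (Porcn), carried to the cell surface by Wntless (Wls), and bound by a Frizzled together with Lrp5 or Lrp6, which stops the destruction of beta-catenin and lets it switch on target genes with TCF/LEF factors. Sfrp proteins, Frzb and Wif1 bind the Wnt itself, Dkk1, Dkk2 and Dkk4 bind Lrp5 and Lrp6, and R-spondins raise the number of Frizzled receptors on the surface. In the stomach, Wnt signals keep gland stem cells dividing, and much of the ligand, agonist and inhibitor in the normal gut wall is made by the stroma.

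RNA was measured on 4 one-colour arrays, each holding cells sorted from glandular stomach tumours of K19-Wnt1/C2mE mice aged 30 weeks. In these mice the keratin 19 promoter, which is active in the gastric epithelium, drives Wnt1, and further transgenes supply the prostaglandin E2 enzymes Ptgs2 and Ptges. All 4 samples carry these transgenes, and no tumour without them and no normal stomach is among them. Cells bearing lineage (Lin) markers were removed, and the remaining cells were divided into Lin- CD44+ (2 arrays) and Lin- CD44- (2 arrays). CD44 is a hyaluronan receptor of the cell surface, and the comparison asks which transcripts differ between tumour cells with and without it. The sources used here name neither the lineage markers nor any pooling of animals. The labels do not tie replicates to separate animals, so a p-value reflects the spread between these arrays alone, and that spread may be technical. In such sorted bulk RNA, fewer cells of a type and less RNA per cell cannot be told apart.

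Of the members with a promoter in the RefSeq table, Wif1, Sfrp2 and Dkk2 are the inhibitors with the largest differences between the groups, and their upstream sequences are shown to let them be compared. Each is the 250 bases before the transcription start on the plus strand of GRCm38.p6, from RefSeq, written 5′ to 3′ with every CG dinucleotide in capitals.

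Wif1, chr10:121033754-121034003: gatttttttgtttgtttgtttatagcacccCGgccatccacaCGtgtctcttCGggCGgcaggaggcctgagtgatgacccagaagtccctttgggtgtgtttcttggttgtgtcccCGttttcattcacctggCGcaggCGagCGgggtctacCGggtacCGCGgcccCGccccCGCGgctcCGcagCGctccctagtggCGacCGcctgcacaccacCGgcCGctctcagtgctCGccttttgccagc

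Sfrp2, chr3:83766071-83766320: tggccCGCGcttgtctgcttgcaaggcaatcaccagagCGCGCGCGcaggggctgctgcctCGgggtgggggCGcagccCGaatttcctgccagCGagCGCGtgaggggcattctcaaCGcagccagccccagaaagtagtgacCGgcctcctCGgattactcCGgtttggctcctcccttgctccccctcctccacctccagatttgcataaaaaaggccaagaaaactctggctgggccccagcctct

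Dkk2, chr3:132085042-132085291: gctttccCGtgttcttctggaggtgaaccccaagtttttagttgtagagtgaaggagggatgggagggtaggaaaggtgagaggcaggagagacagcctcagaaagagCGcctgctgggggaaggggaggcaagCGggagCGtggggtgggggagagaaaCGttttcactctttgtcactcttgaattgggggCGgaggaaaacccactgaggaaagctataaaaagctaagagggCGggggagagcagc

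The Wif1 window held 21 CG dinucleotides and 62.8% G and C, the Sfrp2 window 16 and 63.6%, and the Dkk2 window 7 and 55.6%. The windows were searched on both strands for CTTTGA or CTTTGT, letters found in TCF/LEF binding motifs. TATAAA was counted only as written 5′ to 3′. Dkk2 had 1 match of each kind, and Wif1 and Sfrp2 had neither. The Wif1 window reads tttata near its start, which is TATAAA on the opposite strand and was not counted. Among all 32851 promoter windows of this length in the table, 27.6% held the first motif and 7.59% the second. Among the 32 windows of the 29 members listed there, 25% and 12.5% did. The median member window had 66.8% G and C and 21.5 CG dinucleotides, against 52.4% and 6 in all windows. A match of letters describes the sequence and is not a measured binding site.

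Levels are given as log2 of the processed signal relative to the array's own 75th percentile, which is 0 on this scale, and differences are CD44+ minus CD44-. A probe is called well above background where the scanning software's flag says so. Each standard error (SE, after ±) is limma's moderated one, which pools a gene's own spread with that of all genes tested. For a gene with close replicates it is therefore larger than the gene's own spread gives. The 75th percentile was 244 and 493 signal units on CD44+ replicates 1 and 2, and 406 and 527 on CD44- replicates 1 and 2, and 52.6% to 69.1% of probes were well above background, fewest on CD44+ replicate 1. Across genes, CD44- replicate 2 correlated at 0.877 and 0.927 with the CD44+ arrays, below the 0.948 and 0.963 of CD44- replicate 1. The 2 CD44- arrays correlated at 0.947 with each other, and the 2 CD44+ arrays at 0.965. By this measure CD44- replicate 1 was no closer to its own replicate than to the CD44+ arrays. Cd44 itself was 3.34-fold higher in CD44+ cells (log2 difference 1.74 ± 0.49, SE, n = 2 against 2, limma adjusted p = 0.199), with no overlap between the groups. The epithelial keratins Krt8, Krt18 and Krt19 were well above background on all 4 arrays, and so was the pan-leukocyte marker Ptprc, although the cells were sorted as Lin-. Itgam and Adgre1, markers of myeloid cells and macrophages, were not well above background on any array. Having 2 arrays in each group limits how precise any value can be.

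Of the 34 tested members, 1 passed limma's test with Benjamini-Hochberg adjustment at 0.05 over all 21045 genes: Wif1, a secreted inhibitor, with a mean 19.7-fold lower in CD44+ cells. Wif1 was well above background on both CD44- arrays but on only 1 of the 2 CD44+ arrays, so it entered the test through the CD44- arrays alone, and the call was lost when dim probes were not filtered (limma adjusted p = 0.0939). Over all those genes 0.399% passed, 0.0238% as higher and 0.375% as lower in CD44+ cells. An unadjusted p under 0.05 was reached by 1 member on the higher and 9 on the lower side, and by 2.86% and 7.9% of all genes. Groups that did not overlap with means at least 2-fold apart were seen for 1 member on the higher side (Lrp5), against 3.8% of all genes, and for 10 on the lower side, against 9.66% of all genes. Those 10 are the ligands Wnt10a, Wnt3a and Wnt9a, the agonist Rspo1, and the inhibitors Wif1, Dkk2, Sfrp1, Sfrp2, Sfrp4 and Dkk3. Of these 10 genes, 8 entered the test through the CD44- arrays alone, a class of 3797 genes in which 34.1% met the same description. The 23 members well above background on all 4 arrays gave 1 such gene on the higher and 2 on the lower side (Wnt10a and Dkk3), where all 17173 such genes gave 4.34% and 4.29%. The median log2 difference of the 34 tested members was -0.33, with 14 above and 20 below 0, against a median of 0.16 over all genes. Over the 23 members well above background on all arrays the sign turned, with a median of 0.19, 13 above and 10 below 0, against 0.24 over all such genes. With normexp background correction the median of the 34 tested members was 0.00, with 17 on either side. Normexp as run here adds an offset of 50 signal units, which by itself shrinks differences between dim signals. Small normexp differences of dim probes are therefore no test of the background correction.

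**Figure D1:**
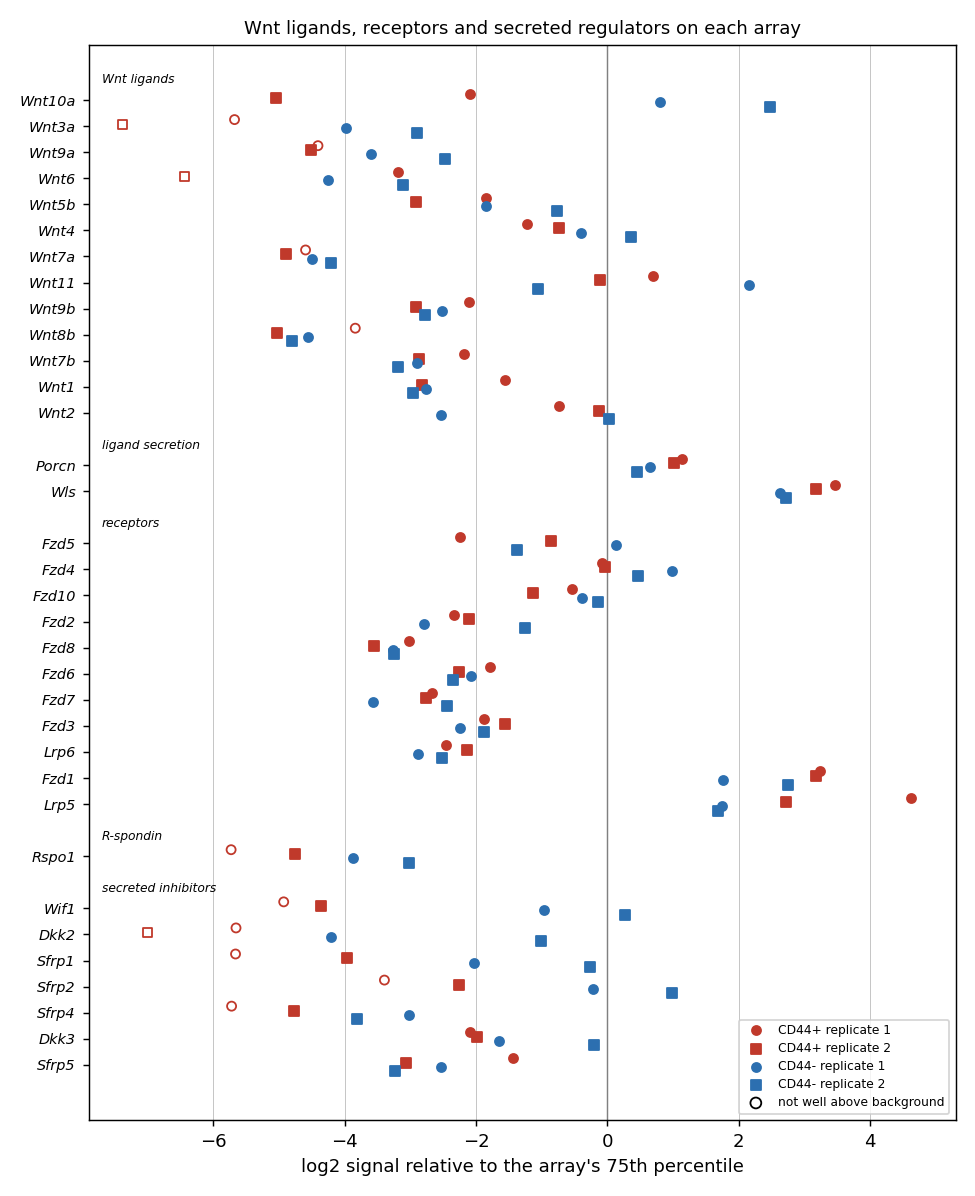
Level of each tested member on each array, as log2 signal relative to that array's 75th percentile, grouped by role; red marks the CD44+ and blue the CD44- arrays, circles replicate 1 and squares replicate 2, and open symbols a probe not well above background there. The inhibitors other than Sfrp5, and the ligands Wnt10a, Wnt3a and Wnt9a show both CD44- arrays to the right of both CD44+ arrays, while most Frizzled receptors lie close together.

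Of the 19 Wnt ligands with a probe, 13 were tested and 0 passed adjustment in either direction. In limma 3 had an unadjusted p under 0.05 (Wnt10a, Wnt3a and Wnt9a), all on the lower side, where 7.9% of all genes had one. The median log2 difference of the 13 was -0.39, with 5 above and 8 below 0. Without CD44+ replicate 2 it was 0.14, so its sign rests on that array. Wnt1, the ligand encoded by the transgene, measured -1.56 and -2.82 in CD44+ cells and -2.76 and -2.96 in CD44- cells. CD44+ replicate 1 was the highest of the 4 and the groups overlapped. The log2 difference was 0.67 ± 0.54 (SE, n = 2 against 2, limma adjusted p = 0.781), and 0.04 without CD44+ replicate 1. The sources used here do not say whether this probe lies in the part of Wnt1 that the transgene carries, so the value may or may not include transgene RNA.

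Wnt10a, a ligand of skin, hair and tooth epithelium, had the largest difference of all members. It measured -2.09 and -5.05 in CD44+ cells and 0.80 and 2.48 in CD44- cells, that is, 57.3 and 14.9 signal units against 707 and 2942. It was well above background on all 4 arrays, both CD44- arrays were higher than both CD44+ arrays, and each pair of replicates was itself more than 2-fold apart. The log2 difference was -5.21 ± 0.95 (SE, n = 2 against 2), a 37.0-fold lower mean in CD44+ cells, with a limma adjusted p of 0.0837. The difference ranged from -6.69 without CD44+ replicate 1 to -3.73 without CD44+ replicate 2. The limma adjusted p was 0.0206 when the genes tested were limited to those well above background on all arrays, and 0.252 with quantile normalization. With the replicate number as a block it was 2.75e-21. That fit gave all genes the same standard error, 0.516, so the spread of Wnt10a itself did not enter.

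Of the 6 markers of squamous forestomach epithelium, 4 had the same order of arrays as Wnt10a. Krt5, Krt14 and Krt15, keratins of the basal layer, and Trp63 were lowest on CD44+ replicate 2, then CD44+ replicate 1, CD44- replicate 1 and CD44- replicate 2. Dsg3 and Krtdap were both lower on CD44- replicate 2 than on CD44- replicate 1. The order was not particular to Wnt10a or to squamous markers. Among the members Wnt9a had it, by a small margin (-4.41 and -4.52 in CD44+ cells). The epithelial markers Cldn3 and Cldn4 and the enteroendocrine marker Sst had it too. Dkk2 and Wnt3a had it in their values, but their CD44+ signals lay near the dimmest of each array. Dkk2 gave 4.84 and 3.84 signal units and Wnt3a 4.76 and 2.97, where the array minima were 4.55 and 2.83. At such signals the order of the CD44+ arrays is not informative. All 6 squamous markers were tested, all 6 differences were below 0 with a median of -6.20, and 1 passed adjustment (Krtdap, limma adjusted p = 0.000714). Their summed signal, in units of each array's 75th percentile, was 13.6 and 1.04 in CD44+ cells and 208 and 355 in CD44- cells. Dsg3 and Krtdap were well above background on the CD44- arrays only. The part of these cells in the Wnt10a value was not tested.

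Wnt3a, a ligand of the beta-catenin branch, measured -5.68 and -7.38 in CD44+ cells and -3.98 and -2.91 in CD44- cells. Neither CD44+ array had it well above background, so the fold is a lower limit, in which each CD44+ array counts at its Wnt3a signal or, if higher, at the dimmest signal well above background there. On that basis Wnt3a was at least 1.78-fold lower in CD44+ cells (log2 difference of the measured values -3.08 ± 0.66, SE, n = 2 against 2, limma adjusted p = 0.121). Wnt9a, another ligand, measured -4.41 and -4.52 in CD44+ cells, where only replicate 2 was well above background, and -3.61 and -2.48 in CD44- cells. Its log2 difference was -1.42 ± 0.52 (limma adjusted p = 0.341). A second Wnt9a probe, not well above background on any array, gave 0.55. After normexp the differences were -0.40 for Wnt3a and -0.27 for Wnt9a. At signals this dim, the offset of 50 units by itself shrinks a difference.

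The ligands Wnt6, Wnt5b and Wnt4 had the next largest differences. Wnt6 measured -3.19 and -6.44 in CD44+ cells and -4.25 and -3.11 in CD44- cells, a difference of -1.14 ± 0.96 that became 0.49 without CD44+ replicate 2. Wnt5b, which signals largely without beta-catenin, measured -1.85 and -2.92 against -1.85 and -0.77, a difference of -1.07 ± 0.58, and a second probe gave 0.35. For Wnt6 and Wnt5b the groups overlapped. Wnt4 measured -1.23 and -0.74 in CD44+ cells and -0.40 and 0.35 in CD44- cells, a difference of -0.96 ± 0.49 without overlap. The limma adjusted p-values of the 3 genes lay between 0.590 and 0.784.

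Wnt2 and Wnt11 were singled out after their values were seen, because the sign of their difference changed with the array left out. They were not alone in this. The sign also changed with the array left out for Wnt6, Wnt8b, Wnt9b, Sfrp5, Fzd2, Fzd6, Fzd7 and Fzd8. Wnt2 measured -0.74 and -0.13 in CD44+ cells and -2.53 and 0.03 in CD44- cells, so CD44- replicate 1 lay below the other 3 arrays. Its log2 difference of 0.82 ± 0.79 became -0.47 without that array. Wnt11 measured 0.69 and -0.11 in CD44+ cells and 2.15 and -1.05 in CD44- cells, with the CD44- arrays on either side of both CD44+ arrays. The difference of -0.26 ± 0.93 became 1.34 without CD44- replicate 1, -1.86 without the other CD44- array and 0.14 without CD44+ replicate 2. Among the remaining ligands, 4 were tested (Wnt7a, Wnt7b, Wnt8b and Wnt9b) and had differences from -0.39 to 0.52, with standard errors of 0.45 to 0.53.

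Porcn and Wls, the genes for Wnt release, were well above background on all 4 arrays and higher on both CD44+ arrays than on both CD44- arrays, by less than 2-fold. Wls measured 3.47 and 3.17 in CD44+ cells against 2.63 and 2.72 in CD44- cells, and its log2 difference was 0.64 ± 0.44 (SE, n = 2 against 2, limma adjusted p = 0.751). Porcn measured 1.14 and 1.01 against 0.66 and 0.45, a difference of 0.52 ± 0.44 (limma adjusted p = 0.783). Neither passed the test.

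All 11 receptor genes with a probe were well above background on every array. Their median log2 difference was 0.19, near the 0.24 of all genes well above background on every array, with 6 above and 5 below 0. That median was -0.04 without CD44+ replicate 1 and also -0.04 without CD44- replicate 1. No receptor passed adjustment in limma, and 1 had an unadjusted p under 0.05, on the higher side, where 2.86% of all genes had one.

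That receptor was Lrp5, the co-receptor that Frizzleds share with Lrp6. It measured 4.62 and 2.72 in CD44+ cells and 1.74 and 1.68 in CD44- cells. The CD44- arrays were close together, and CD44+ replicate 1 was well above CD44+ replicate 2, with 6007 against 3252 signal units. The log2 difference was 1.96 ± 0.64 (SE, n = 2 against 2, limma adjusted p = 0.282), or 3.89-fold. Without CD44+ replicate 1 it was 1.01 and without CD44+ replicate 2 it was 2.91. Its paralog Lrp6 differed by 0.40 ± 0.45 (limma adjusted p = 0.819).

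Among the Frizzleds, Fzd1 measured 3.23 and 3.18 in CD44+ cells and 1.77 and 2.75 in CD44- cells, so its log2 difference was 0.94 ± 0.50. Fzd4, which also serves as the receptor of Norrin, measured -0.08 and -0.03 against 0.98 and 0.47, a difference of -0.78 ± 0.45. Fzd5 measured -2.24 and -0.86 against 0.13 and -1.38, a difference of -0.93 ± 0.67 with overlapping groups, and its second probe gave 0.01. The groups of Fzd1 and of Fzd4 did not overlap, and the limma adjusted p-values of the 3 genes lay between 0.617 and 0.766. The other 6 Frizzleds (Fzd2, Fzd3, Fzd6, Fzd7, Fzd8 and Fzd10) ranged from -0.58 to 0.34, and 4 of them overlapped between the groups. For Fzd10 a second probe gave 0.30 where the brighter one gave -0.58, and for Fzd3 -0.69 where the brighter one gave 0.34.

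**Figure D2:**
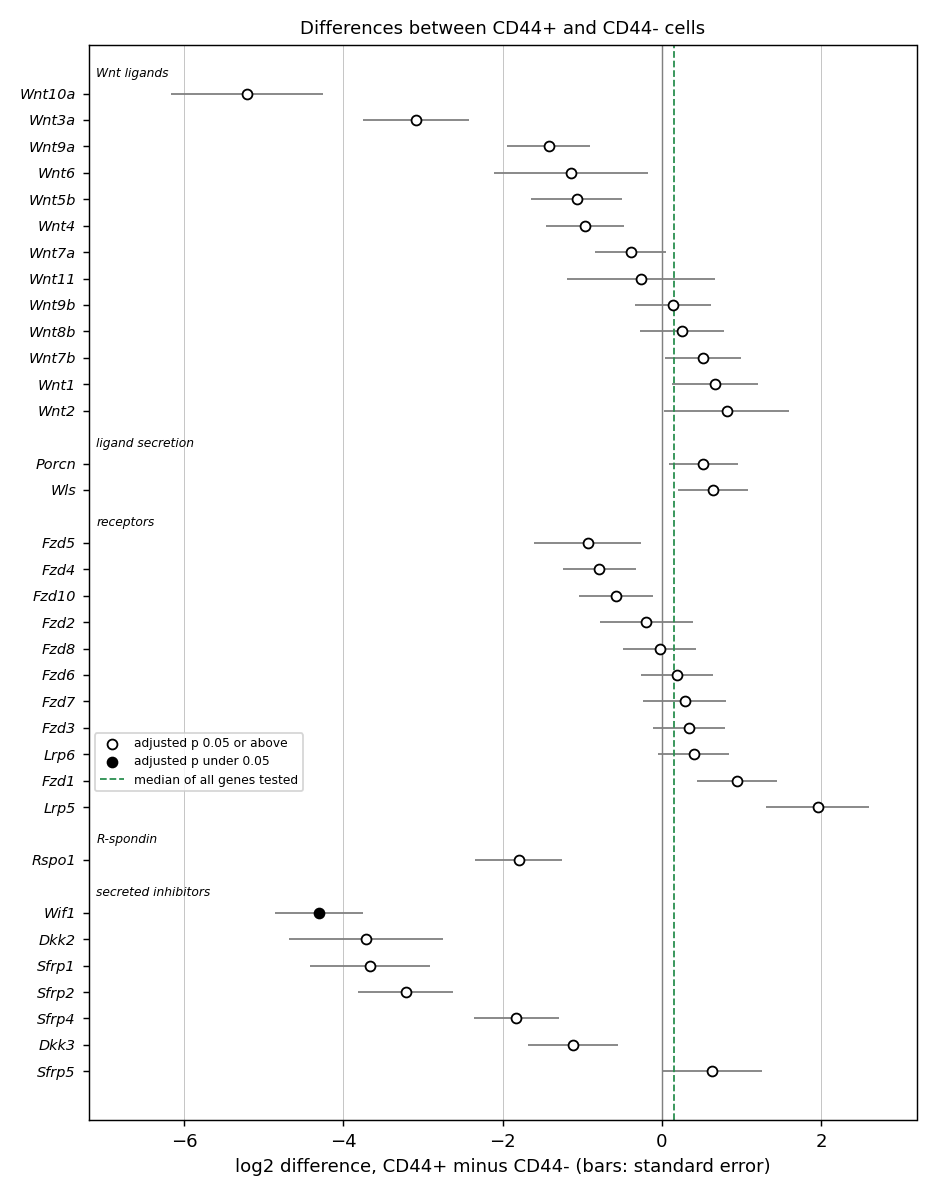
Log2 difference between CD44+ and CD44- cells for each tested member, with limma's moderated standard error as a bar, grouped by role; a filled point passed limma's test at an adjusted p under 0.05, and the dashed line is the median of all genes tested, 0.16. Wif1 at -4.30 is the single filled point, and Wnt10a at -5.21 lies farther from 0 with a wider bar.

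Secreted inhibitors numbered 10, of which 7 were tested and 1 passed, as lower in CD44+ cells. Their median log2 difference was -3.22, with 1 above and 6 below 0, and it stayed below 0 under each alternative run, from -3.82 without CD44- replicate 1 to -0.24 over the 2 inhibitors well above background on all arrays (Dkk3 and Sfrp5). Under normexp background correction 2 were above and 5 below 0, with a median of -1.05. Of the 7 genes, 5 entered the test through the CD44- arrays alone, so their count and median on the lower side are a description and support no direction for the family.

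Wif1, which binds Wnt ligands in the extracellular space and whose promoter is shown above, gave 8.01 and 24.0 signal units in CD44+ cells and 209 and 636 in CD44- cells. On the log2 scale these are -4.93 and -4.36 against -0.96 and 0.27, and the probe was not well above background on CD44+ replicate 1. Both CD44- arrays were far above both CD44+ arrays, and the 2 arrays within each group were closer to each other than to the other group. The log2 difference was -4.30 ± 0.55 (SE, n = 2 against 2, limma adjusted p = 0.025). It ranged from -4.92 to -3.68 when 1 array was left out. The call was lost without CD44+ replicate 1, without CD44+ replicate 2, with quantile normalization (limma adjusted p = 0.128) and with no filter on dim probes (0.0939). It was kept in 7 of 11 alternatives, which are not separate checks. Wif1 has 1 probe, so averaging probes left its values unchanged, and the value table nearly repeats median scaling (-4.20 in both). With normexp and with the replicate block, the spread of Wif1 itself did not enter. With normexp the difference was -2.08.

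The Sfrp genes encode soluble relatives of the Frizzled ligand-binding domain. Sfrp2 measured -3.39 and -2.26 in CD44+ cells and -0.21 and 0.99 in CD44- cells, so that the log2 difference was -3.22 ± 0.60 (SE, n = 2 against 2, limma adjusted p = 0.0861), or 9.30-fold. Sfrp1 measured -5.66 and -3.97 against -2.04 and -0.27, a difference of -3.66 ± 0.75 (limma adjusted p = 0.111), and a second, dimmer probe gave -1.97. Sfrp4 measured -5.72 and -4.77 against -3.02 and -3.81, a difference of -1.83 ± 0.53 (limma adjusted p = 0.218). In all 3 genes both CD44- arrays were above both CD44+ arrays, and only replicate 2 of the CD44+ arrays was well above background. With normexp background correction the difference of Sfrp1 was -1.55, that of Sfrp2 was -2.14 and that of Sfrp4 was 0.01. Without CD44- replicate 2 they were -2.78, -2.61 and -2.23 for Sfrp1, Sfrp2 and Sfrp4.

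Sfrp5 went the other way among the inhibitors and did not pass. It measured -1.44 and -3.06 in CD44+ cells and -2.53 and -3.24 in CD44- cells, with overlapping groups. The log2 difference of 0.63 ± 0.62 (SE, n = 2 against 2, limma adjusted p = 0.803) became -0.17 without CD44+ replicate 1.

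Dkk2, which binds Lrp5 and Lrp6 and can inhibit or weakly activate the pathway, was well above background on the CD44- arrays only. It measured -5.65 and -7.00 in CD44+ cells and -4.21 and -1.01 in CD44- cells, and the CD44- replicates lay far apart. The gene was at least 3.17-fold lower in CD44+ cells (log2 difference of the measured values -3.72 ± 0.97, SE, n = 2 against 2, limma adjusted p = 0.177). That difference was -2.12 without CD44- replicate 2, -5.32 without CD44- replicate 1 and -1.05 with normexp. Dkk3, a divergent member of the family that does not act through Lrp6 as Dkk1 does, measured -2.10 and -1.98 in CD44+ cells and -1.64 and -0.21 in CD44- cells. Its log2 difference of -1.11 ± 0.56 (limma adjusted p = 0.587) was -0.39 without CD44- replicate 2.

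Rspo1, an R-spondin and so an agonist, was the only gene of its family tested. It measured -5.73 and -4.75 in CD44+ cells, where replicate 2 alone was well above background, and -3.87 and -3.02 in CD44- cells. The log2 difference was -1.80 ± 0.54 (SE, n = 2 against 2, limma adjusted p = 0.233), and -0.25 with normexp. Of the 12 members not tested, 9 were not well above background on any array (Wnt2b, Wnt8a, Wnt10b, Wnt16, Dkk1, Dkk4, Rspo2, Rspo3 and Rspo4). The other 3 (Wnt3, Wnt5a and the inhibitor Frzb) were well above background on CD44- replicate 2 and on no other array.

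**Figure D3:**
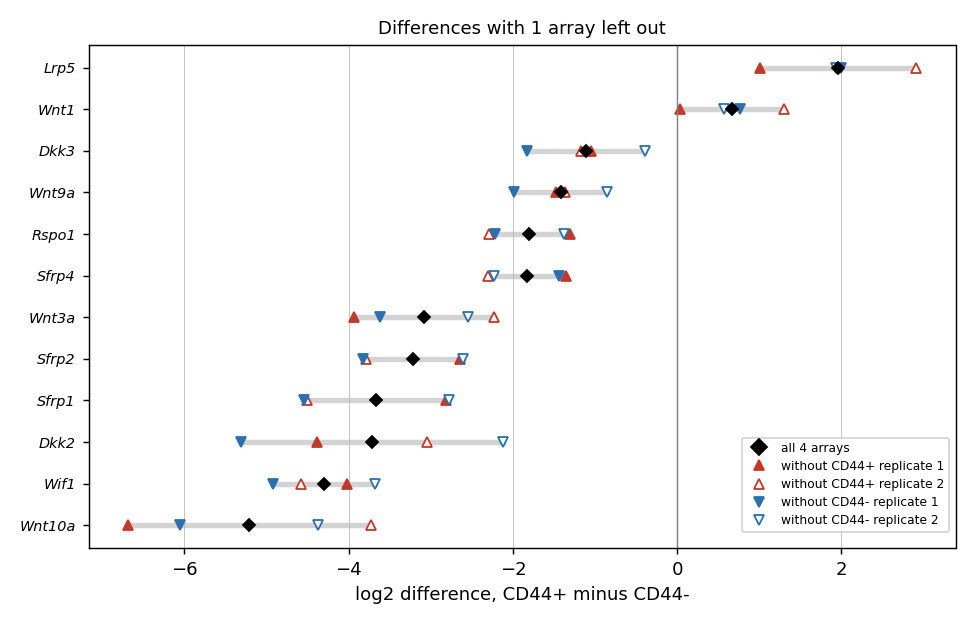
Log2 difference between CD44+ and CD44- cells for Wnt1 and for the members with non-overlapping groups at least 2-fold apart, from all 4 arrays (black) and after dropping any 1 of them (triangles). Groups that do not overlap keep their sign whichever array is dropped, so only the size of the change is informative for those members. Lrp5 lies between 1.01 and 2.91, and Wnt1, whose groups overlap, between 0.04 and 1.30.

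Markers of stromal cells had the same sign of difference as most inhibitors. All 10 fibroblast markers were tested, and all 10 differences were below 0 with a median of -3.22. In limma 0 of them passed adjustment, although 8 had an unadjusted p under 0.05, against 7.9% of all genes on the lower side. Their summed signal, in units of each array's 75th percentile, was 12.7 and 46.7 in CD44+ cells and 78.5 and 457 in CD44- cells. Col1a1 and Col1a2, the collagen I chains, differed by -2.46 ± 0.88 and -3.18 ± 1.07. Mfap5 and Dpt, also fibroblast markers, were well above background on the CD44- arrays only. Of the 10 members on the lower side, 5 (Wif1, Sfrp1, Sfrp2, Dkk3 and Rspo1) had the order of arrays of the fibroblast sum, which was CD44+ replicate 1, CD44+ replicate 2, CD44- replicate 1 and CD44- replicate 2 from low to high. The other 5 did not, since Sfrp4 was highest on CD44- replicate 1 and Dkk2, Wnt3a, Wnt9a and Wnt10a were lowest on CD44+ replicate 2. Of the 10 fibroblast markers themselves, 5 had that order. The sums of the endothelial, smooth muscle and pericyte, and enteroendocrine markers, given below, had it too, so the order is not particular to fibroblasts.

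Endothelial markers gave 1.30 and 1.83 in CD44+ cells and 4.92 and 75.2 in CD44- cells, with 7 of 8 tested and 6 of those below 0. Pecam1, the eighth, was well above background only on CD44- replicate 2. Smooth muscle and pericyte markers gave 8.42 and 11.5 against 12.8 and 61.7, with 7 of 8 tested and all 7 below 0, and Des was not well above background on any array. Epithelial markers gave 2167 and 1553 against 1971 and 847, with 8 of 8 tested, 6 above and 2 below 0. In that sum CD44- replicate 2 was lowest, and in the stromal lists it was highest. The 2 below 0, Cldn3 and Cldn4, were highest on CD44- replicate 2. Enteroendocrine markers gave 1.23 and 3.74 against 302 and 704, with 5 of 6 called as lower in CD44+ cells. The leukocyte sum lay between 1.01 and 1.70 on the 4 arrays, with 6 of 8 tested and 1 called (Cd53, higher in CD44+ cells). Mast cell markers had a median difference of 1.45, with 7 of 8 tested, all 7 above 0 and 1 called (Mcpt1). The part of these other cell types in the values of the inhibitors and ligands was not tested.

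The 2 CD44- arrays also differed from each other in the member genes. Of the 34 tested members, 13 were at least 2-fold higher on CD44- replicate 2 than on replicate 1 and 2 were at least 2-fold lower, against 10.9% and 9.30% of all genes tested. The 13 were 5 of the 7 tested inhibitors, 6 of the 13 tested ligands and 2 of the 11 receptors. Among the fibroblast markers 8 of 10 were higher on replicate 2 by that measure, and among the endothelial markers 8 of 8.

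**Figure D4:**
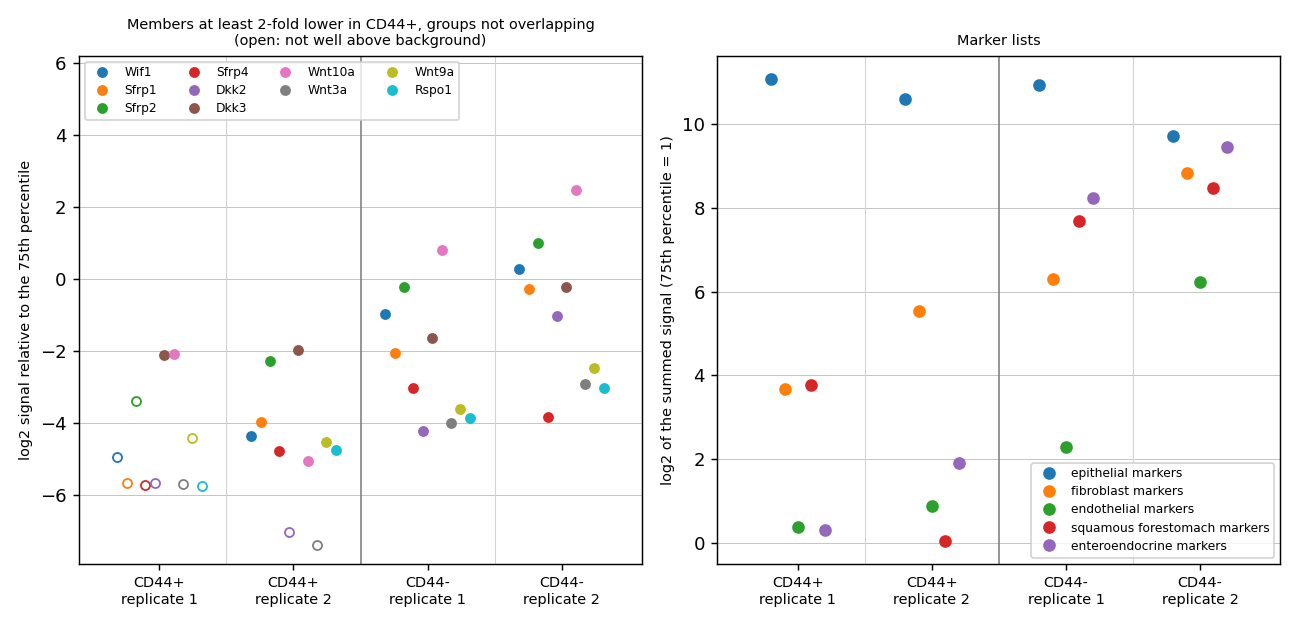
Left, log2 signal on each array of the 10 members whose groups did not overlap and were at least 2-fold lower in CD44+ cells, with open points where a probe was not well above background; right, log2 of the summed signal of 5 marker lists on the same arrays, with the 75th percentile as 1. The fibroblast sum goes from 12.7 on CD44+ replicate 1 to 457 on CD44- replicate 2, the array where Wif1, Sfrp1, Sfrp2, Dkk2 and Wnt10a are also highest. The endothelial, squamous and enteroendocrine sums are highest on that array as well.

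The rest of the pathway was described with a list of 87 other genes, of which 83 had a probe and 70 were tested. Of these 70, 0 passed as higher and 1 as lower in CD44+ cells, against 0.0238% and 0.375% of all genes. In limma 5 on the higher and 10 on the lower side had an unadjusted p under 0.05, against 2.86% and 7.9% of all genes. The median log2 difference of the 70 was 0.07, with 36 above and 34 below 0, against 0.16 over all genes. With quantile normalization it was -0.06, against 0.12 over all genes. The gene that passed was Sostdc1, a secreted antagonist that binds Lrp5 and Lrp6 as well as bone morphogenetic proteins. It measured -5.73 and -5.97 in CD44+ cells, not well above background, and -1.40 and 0.26 in CD44- cells. Sostdc1 was at least 13.1-fold lower in CD44+ cells (log2 difference of the measured values -5.28 ± 0.60, SE, n = 2 against 2, limma adjusted p = 0.0181). Like Wif1 it lost its call under quantile normalization (limma adjusted p = 0.123), with dim probes kept in (0.0525), and on leaving out CD44+ replicate 1 (0.176) or CD44+ replicate 2 (0.196). With normexp its difference was -2.05.

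On the higher side, the 4 genes of that list with the smallest p did not pass. Tspan12, a tetraspanin that helps Fzd4 and Lrp5 respond to the ligand Norrin, measured 6.84 and 7.00 in CD44+ cells and 4.47 and 5.04 in CD44- cells, and the log2 difference was 2.17 ± 0.46 (SE, n = 2 against 2, limma adjusted p = 0.114). Ndp, which encodes Norrin, measured -1.98 and -1.75 against -3.21 and -3.65, a difference of 1.56 ± 0.45 (limma adjusted p = 0.216). The receptor genes of the same ligand differed in opposite directions, Lrp5 by 1.96 ± 0.64 and Fzd4 by -0.78 ± 0.45, and neither passed.

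Tcf7, a nuclear partner of beta-catenin, measured -1.80 and -1.75 in CD44+ cells and -3.74 and -2.92 in CD44- cells, a difference of 1.56 ± 0.48 (SE, n = 2 against 2, limma adjusted p = 0.244). Axin2, a scaffold of the beta-catenin destruction complex and a common target gene of the pathway, measured -0.82 and -1.20 against -2.06 and -2.52, a difference of 1.28 ± 0.46 (limma adjusted p = 0.330). For each of these 4 genes both CD44+ arrays were above both CD44- arrays. That order by itself keeps the difference above 0 with any 1 array left out.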

How the data were processed

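RNA of 4 sorted cell samples was measured on 4 arrays, grouped by the sample titles. Total RNA (25 ng) was amplified and labelled with Cy3 per the labels' protocols, which can distort ratios between transcripts. The authors deposited a scanner table per array. Per the file headers it was written by Agilent Feature Extraction 10.1.1.1 (the submitters' processing notes name 9.5), for an array design on mm8. Its processed signal, median spot signal and median background are intensity values, the first after background subtraction, per the file headers. The deposited flags for outliers, saturation and signal well above background are 0 or 1. The authors' deposited value table holds a linear ratio of each probe to its median over the 4 arrays, after 1 scaling factor per array. Its column medians are 0.853 and 0.989 (CD44+) and 0.928 and 0.739 (CD44-). Over 10727 probes with a signal above 200 on every array, 100% had a median of 1 within 0.001. This settles its direction and centring, but not the choice of factors.

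Control spots and outliers (109 to 133 per array) were left out, spots of a probe were averaged, and log2 signals were taken relative to the array's 75th percentile. No spot was saturated. Accessions were matched to RefSeq genes (GRCm38.p6), which named 24375 of 41174 probes. A gene was tested through its brightest probe if both arrays of at least 1 group had it well above background. All 21045 genes were fitted with limma 3.58.1 (lmFit, eBayes, R 4.3.3) without covariates, on 2 residual degrees of freedom, after a test on simulated data with 200 changed genes. Moderation of the standard errors and p-values added 6.01 prior degrees of freedom, shared by all genes. Members, lists, markers and tests were chosen with earlier results of these data known. Values are given for each array for Wnt1, for called members, for members with non-overlapping means at least 2-fold apart, for up to 3 more per class, and for the other pathway genes called or with the smallest p. Alternatives were scaling, background correction, the filter, probe choice, the value table, the replicate number as a block and leaving out each array. The background correction was normexp with an offset of 50 signal units.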

Additional observations from a re-analysis of the deposited data

How the results depend on the processing

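Over all genes, 84 were called (5 higher, 79 lower), against 748 with each array scaled to its median (121 higher, 627 lower), 753 from the authors' value table (121 and 632), 540 with normexp (98 and 442), 24 with no filter on dim probes and 6 with quantile normalization, and between 2 and 1590 with 1 array left out (34 and 2 without CD44+ replicates 1 and 2, 1590 and 464 without CD44- replicates 1 and 2). Scaling to the median moved the median of all genes by 0.105. Among the members, 1 was called, against 6 with median scaling and 6 from the value table (Wif1, Wnt10a, Sfrp1, Sfrp2, Dkk2 and Wnt3a), 4 with normexp (Wif1, Wnt10a, Sfrp2 and Lrp5), 0 with quantile normalization and 0 with no filter, and between 0 and 7 with 1 array left out. With testing limited to genes well above background on all arrays, 1 was called, and it was Wnt10a in place of Wif1, whose probe no longer entered. Among the other pathway genes, 1 was called, against 3 with median scaling, 3 from the value table, 2 with normexp, 0 with quantile normalization, 0 with no filter, 0 with genes well above background on all arrays, and between 0 and 8 with 1 array left out. Over 28 named genes and 326 pairs of gene and alternative, 273 kept direction and side of the threshold, 8 lost a call (Wif1 and Sostdc1), 39 gained one and 6 changed sign. The sign changes were Sfrp4 with normexp (0.011), and 4 genes with 1 array left out, where Wnt6 ranged from -2.76 to 0.49 (above 0 without CD44+ replicate 2), Sfrp5 from -0.17 to 1.44 (below 0 without CD44+ replicate 1), Wnt2 from -0.47 to 2.10 (below 0 without CD44- replicate 1) and Wnt11 from -1.86 to 1.34 (above 0 without CD44+ replicate 2 and without CD44- replicate 1), and the cause was not tested. Same-numbered samples share only a number, and their deviations from the group means correlated at 0.347. A fit with the replicate number as a block, on 1 residual degree of freedom, called 1829 genes, 9 members and 12 other pathway genes. In that fit limma gave all genes the same standard error (0.516), and with normexp likewise (0.496). A gene's own spread did not enter its p-value there. With 1 array left out of a group, the lone array is assumed to vary like the other group. Slide and scan could not be fitted as blocks, since all arrays lie on 1 slide and in 1 scan. Dim probes limit these results: 11 of 34 tested members were well above background on both arrays of CD44- cells only.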

Other observations

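The receptors and enzymes through which R-spondins act were described after their values were seen. Lgr5, an R-spondin receptor and stem cell marker, measured -0.79 and -2.51 in CD44+ cells and -2.57 and -0.60 in CD44- cells, so 1 array of each group was high and 1 low, and the log2 difference was -0.07 ± 0.78. Its relatives Lgr4 and Lgr6 differed by -0.25 ± 0.49 and 0.07 ± 0.51, with overlapping groups. Rnf43 and Znrf3, the ubiquitin ligases that remove Frizzleds from the surface, measured 3.55 and 3.50 against 3.18 and 2.84, and 1.34 and 0.70 against 0.60 and -0.15. Their differences of 0.52 ± 0.44 and 0.80 ± 0.50 had limma adjusted p-values of 0.785 and 0.711. Notum, a secreted enzyme that strips the lipid from Wnt proteins, measured -1.54 and -2.61 in CD44+ cells and -3.46 and -3.30 in CD44- cells. Its difference of 1.30 ± 0.51 was opposite in sign to those of Wif1, Sfrp1, Sfrp2, Sfrp4, Dkk2 and Dkk3, and did not pass (limma adjusted p = 0.392).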
